A study of Mus musculus with 62 samples.

Results

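The heat shock and cytosolic chaperone genes were followed across single cells of a cultured mouse pancreatic cancer line. They were the 10 genes Hspa1a, Hspa1b, Hspa8, Hsph1, Dnajb1, Hsp90aa1, Hspb1, Hspd1, Hspe1 and Bag3, taken by symbol from the 19112 gene rows of the count table. All 10 had a row. The members share a response to heat, but the label holds only in part for location, since Hspd1 and Hspe1 encode proteins that work in mitochondria.

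The cells were KPC1199-EGFP, a cancer line on a C57BL\6 background that carries green fluorescent protein, grown as 1 untreated adherent culture in medium with serum and used at passage 9. They were detached with trypsin and captured on a Fluidigm C1 chip, which isolates single cells in separate chambers for cDNA synthesis, and 62 libraries were deposited. Each library came from 1 chamber and is labelled as a single cell, though the number of cells per chamber could not be checked. The libraries formed 1 group with no treated or heat-shocked samples, and cells of 1 culture are not replicates of a condition. Values below are therefore descriptions over cells, with no test.

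Spike-in RNA (ERCC) took under 20% of all counts in 50 libraries, and those were described. The other 12 held between 22.3% and 97.2% spike-in counts. In the 50 libraries kept, the spike-in share ran from 0.190% to 1.83%. Their gene rows summed to between 2153900 and 12868800 estimated counts, with a median of 7194660. Between 6832 and 11068 genes were above 0 in a library. Of 7 measured ductal and epithelial markers, 6 were above 0 in at least 50% of the kept libraries, among them the keratins Krt18 (11.11 as mean log2(CPM + 1), where CPM is a gene's counts divided by all gene counts of the library and scaled to 1000000), Krt8 (10.99) and Krt19 (10.87). The marker that did not pass was Epcam, which was above 0 in 18 of 50 libraries, with a median of 0 CPM. Of 8 immune markers only Cd14 passed the 50% mark, and of 7 fibroblast markers only 1 did. No member of the endothelial, acinar and red blood cell lists did. The summed level of a list reached at most 485 CPM for immune, 75.02 for fibroblast, 215 for endothelial, 97.4 for acinar and 23.1 for red blood cell markers in any kept library. The part of other cells in the values below was not tested.

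Chaperones bind unfolded or newly made proteins and keep them from clumping. HSP70 proteins work in cycles driven by ATP. J-domain proteins of the HSP40 family bring them substrates and speed ATP cleavage, and nucleotide exchange factors release the bound nucleotide. HSP90 takes over clients such as kinases and steroid receptors, small heat shock proteins hold unfolding chains without ATP, and the HSP60 chaperonin encloses single chains. Heat shock factor 1 (HSF1) induces many of these genes after protein damage by binding repeats of the letters GAA and TTC in their promoters. Cancer cells often depend on them.

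Each of the 10 genes had a value above 0 in 50% or more of the 50 kept libraries, against 48.6% of all gene rows. Hspa8, Hsp90aa1, Hspd1 and Hspe1 were above 0 in every kept library, as were 11.4% of all gene rows. Between 6 and 10 of the genes were above 0 in each library, with a median of 9. Together they took 0.311% to 0.801% of a library's gene counts, with a median of 0.512%. Without regard to gene length, the median of the 10 mean levels was 6.90 as log2(CPM + 1), beside 3.14 over the 12012 tested genes, which are those above 0 in at least 10 kept libraries. An interval on a share of libraries, here and below, is an exact Clopper-Pearson 95% interval and covers counting error only.

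**Figure D1:**
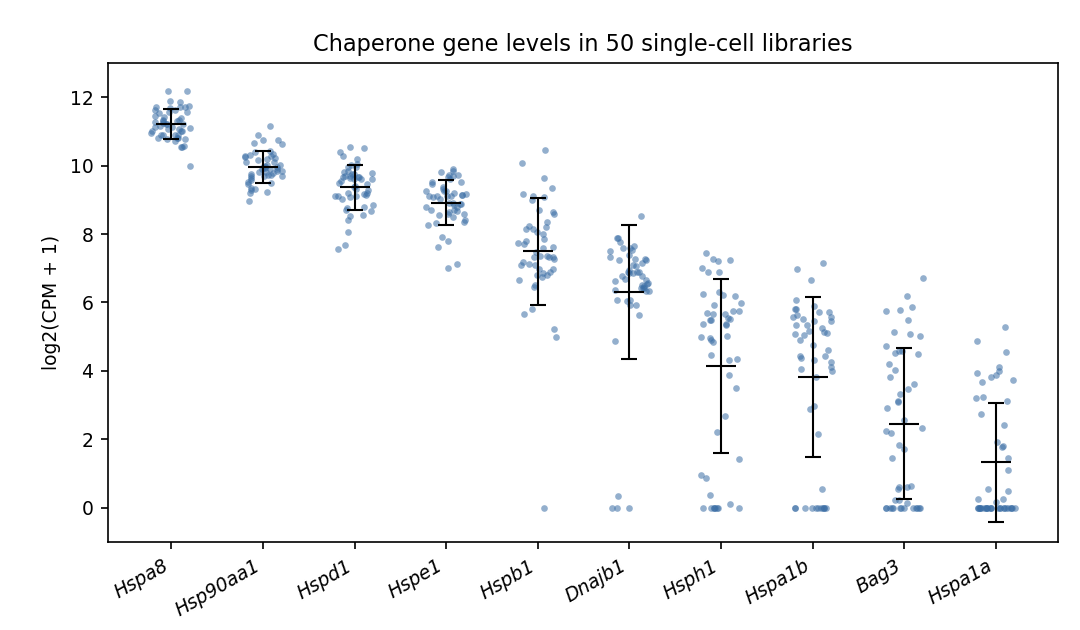
Level of each chaperone gene in log2(CPM + 1). Each point is 1 of the 50 kept libraries, and black marks give the mean and SD. Hspa8 lies highest, at 11.22 ± 0.44, and Hspa1a lowest, at 1.32 ± 1.73, with 25 of its 50 values at 0.

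Hspa8 encodes HSC70, the HSP70 that most cells make without stress. Its level was lowest at 1010 CPM, had a median of 2361 CPM and was highest at 4671 CPM, for a mean of 11.22 ± 0.44 (SD, n = 50) in log2(CPM + 1). The highest library was 4.62 times the lowest, so every cell lay within a narrow range for this gene. The lowest value came from library 19 and the highest from library 16. Of the 31-base words in the longest coding transcript of Hspa8, 77.2% also occur in transcripts of other genes. None of those 13 genes has a row in the count table, and how the counting treated them was not tested.

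Hspa1a and Hspa1b are neighbouring genes that encode nearly the same protein, the HSP70 that stress induces. Both were at 0 in many cells in which Hspa8 was abundant. Hspa1b was above 0 in 39 of 50 libraries (78%, interval 64.04% to 88.5%), with a median of 24.7 CPM and a highest value of 142.7 CPM in library 11. Hspa1a was above 0 in 25 of 50 (50%, interval 35.5% to 64.5%), with a median of 0.0569 CPM and a highest value of 37.7 CPM in library 54. Its place at the 50% mark rests on values near 0, since 20 libraries reached 1 CPM and 10 reached 10 CPM.

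Both of these genes were above 0 in 22 libraries, Hspa1b alone in 17, Hspa1a alone in 3 and neither in 8. Hspa1b was the higher of the pair in 39 libraries and Hspa1a in 3. The split between them is uncertain. Of the 31-base words of Hspa1a, 63.8% also occur in Hspa1b, and of those of Hspa1b, 67.6% occur in Hspa1a. Only 20% of the nonzero Hspa1a values and 43.6% of those of Hspa1b were whole numbers, beside 66.3% of all nonzero values in the kept libraries. Estimated counts need not be whole where reads fit several transcripts. The sum of both genes does not depend on how reads were split between them. It was above 0 in 42 libraries, with a median of 30.96 CPM and a highest value of 150.3 CPM, and a mean of 4.16 ± 2.22 (SD, n = 50) in log2(CPM + 1).

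The likeness of this pair extends to the promoters, which are shown because reads and control regions of the pair are both hard to separate. The 250 bases before the start of each gene (RefSeq, GRCm38.p6, minus strand) were identical at 247 positions, 98.8%. Both windows hold GAAGATTC once, in capitals, an inverted pair of the units that HSF1 binds. The sequences are written 5′ to 3′ towards the start at chr17:34972157-34972406 for Hspa1a and chr17:34959239-34959488 for Hspa1b.
Hspa1a: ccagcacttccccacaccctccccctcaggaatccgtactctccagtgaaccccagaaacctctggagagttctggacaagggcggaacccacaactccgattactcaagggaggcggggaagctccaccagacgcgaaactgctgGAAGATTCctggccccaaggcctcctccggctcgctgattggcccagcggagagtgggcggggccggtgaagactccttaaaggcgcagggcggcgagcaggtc
Hspa1b: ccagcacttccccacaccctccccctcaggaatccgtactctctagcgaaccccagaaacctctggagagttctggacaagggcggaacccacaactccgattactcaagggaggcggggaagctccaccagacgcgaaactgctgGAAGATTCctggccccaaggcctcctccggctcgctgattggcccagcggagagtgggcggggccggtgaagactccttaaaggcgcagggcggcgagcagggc

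Hsph1 encodes HSP110, a nucleotide exchange factor for HSP70. It was above 0 in 42 of 50 libraries (84%, interval 70.9% to 92.8%), with a median of 35.3 CPM and a highest value of 173.8 CPM in library 18. At 10 CPM or more it was found in 35 libraries. Its mean was 4.14 ± 2.54 (SD, n = 50) in log2(CPM + 1), the widest SD of the 10 genes. Hsph1 shares no 31-base word with another gene.

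Bag3 encodes a co-chaperone that binds HSP70, releases its nucleotide and takes part in selective autophagy. It was above 0 in 37 of 50 libraries (74%, interval 59.7% to 85.4%), with a median of 3.87 CPM and a highest value of 104.5 CPM in library 14. At 10 CPM or more it was found in 19 libraries. The 5 libraries highest in Bag3 held 47.2% of its summed CPM, and the same share was 51.8% for Hspa1a, 32.5% for Hspa1b and 34.2% for Hsph1. It was 16.2% for Hspa8. The libraries at the top differed from gene to gene: 30 libraries were among the 5 highest for at least 1 of the 10 genes, 4 for at least 3 genes, and none for more than 3.

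Hspa1a, Hspa1b, Hsph1 and Bag3 are all induced by heat, and they were grouped here after their values were seen. All 4 reached 10 CPM in 4 libraries, 3 of them did in 7, 2 in 26, 1 in 10 and none in 3. Over the 6 pairs of these genes, Pearson's r between log2(CPM + 1) values ran from -0.198 to 0.171, with a median of 0.0355 (n = 50 libraries). The highest of these was Hspa1a with Hspa1b. Many of the values are 0, and over the libraries with both genes of a pair above 0 the r differed. It then ran from -0.282 (Hspa1a with Bag3, n = 19) to 0.381 (Hspa1b with Hsph1, n = 32), and Hspa1a with Hspa1b had 0.149 (n = 22). A count of 0 here cannot be told apart from a transcript that was not captured.

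Dnajb1 encodes HSP40, the J-domain partner of HSP70 that heat induces. It was above 0 in 47 of 50 libraries (94%, interval 83.5% to 98.7%), with a median of 108.2 CPM and a highest value of 365.8 CPM in library 58. Its second highest value was 235.5 CPM. The mean was 6.30 ± 1.96 (SD, n = 50) in log2(CPM + 1), and 46 libraries reached 10 CPM. It was thus found in nearly every cell, unlike Hspa1a and Bag3. Only 4.26% of its nonzero values were whole numbers, although 0.441% of its 31-base words occur in other genes.

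Hsp90aa1 encodes HSP90α, the inducible cytosolic HSP90. Its level was lowest at 502.7 CPM in library 2, had a median of 958.8 CPM and was highest at 2278 CPM in library 48. The mean was 9.96 ± 0.46 (SD, n = 50) in log2(CPM + 1), and the highest library was 4.53 times the lowest. Its close relative Hsp90ab1, which most cells make constantly, had a mean of 11.05 ± 0.33 (SD, n = 50) on the same scale. Of the 31-base words of Hsp90aa1, 62.9% occur in other genes, but only 0.215% in genes that have a row.

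Hspb1 encodes HSP27 (HSP25 in mouse), a small heat shock protein that holds unfolding proteins and acts on actin. It was at 0 in library 60 and above 0 in the other 49, with a median of 170.4 CPM. The highest values were 1409 CPM in library 58 and 1083 CPM in library 19. The mean was 7.49 ± 1.57 (SD, n = 50) in log2(CPM + 1). Among other genes listed with the small heat shock family by symbol, Hspb6 had a mean of 5.37 ± 1.61 and Cryab of 0.34 ± 1.20 on the same scale. Hspb11, whose place in that family rests on its symbol alone, had a mean of 3.32 ± 1.80. Cryab, αB-crystallin, was above 0 in 4 libraries, and Hspb8 in 0 of 50.

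Hspd1 encodes HSP60 and Hspe1 its lid HSP10, which together form the mitochondrial chaperonin. Hspd1 was lowest at 187.9 CPM, had a median of 710.6 CPM and was highest at 1485 CPM in library 12. Hspe1 was lowest at 127.1 CPM, had a median of 531.3 CPM and was highest at 962.5 CPM in library 49. Library 19 was the lowest for both. Of their 31-base words, 55.8% and 48.1% occur in other genes, none of which has a row, and the same holds for 56.7% of those of Hspb1. The mean levels of Hspd1 and Hspe1 were 9.36 ± 0.66 and 8.92 ± 0.65 (SD, n = 50) in log2(CPM + 1), and their ranges of 7.90 and 7.57 times were wider than those of Hspa8 and Hsp90aa1.

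Hspd1 and Hspe1 lie head to head on chromosome 1 and are read in opposite directions. In the GENCODE M21 annotation of GRCm38 their first bases are separated by 107 bases, which are shown because they lie just before both genes. RefSeq gives other starts, with 215 bases between Hspe1 and one start of Hspd1, and another Hspd1 start on the far side of the start of Hspe1. The sequence is on the plus strand, towards Hspe1, at chr1:55088025-55088131. Capitals mark matches to the units GAA and TTC in the 8-letter arrangements GAANNTTC and TTCNNGAA, which here overlap into a run.
Hspd1 and Hspe1: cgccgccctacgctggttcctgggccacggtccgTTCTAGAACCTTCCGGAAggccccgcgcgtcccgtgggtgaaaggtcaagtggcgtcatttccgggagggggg

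RefSeq windows from 250 bases before to 50 after the RefSeq start were used for 8 of the 10 genes, 11 windows in all, and none was used for Hspa8 and Hsp90aa1. Searched on both strands, a motif of 3 alternating units (GAA, TTC and GAA, or TTC, GAA and TTC, with 2 arbitrary letters between units) lay in at least 1 window of 3 of those 8 genes, Hspd1, Hspe1 and Hsph1, and of 0.662% of all 27025 genes with a window. In Hspd1 1 of 2 windows held it, and in Hsph1 it lay after the start. That Hspd1 window and the one of Hspe1 share 285 bases, so their matches are the same letters. The shorter GAANNTTC or TTCNNGAA, which the longer motif contains, lay in at least 1 window of 7 of the 8 genes, all but Dnajb1, and of 16.97% of all genes with a window. In Hspb1 a pair of short matches lay close together on the plus strand at chr5:135887789-135887848, and in Hsph1 a short match lay just before the start on the minus strand at chr5:149636337-149636396. Such a match is a description of letters and not a binding site.
Hspb1: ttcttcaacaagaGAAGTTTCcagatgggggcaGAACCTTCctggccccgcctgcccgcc
Hsph1: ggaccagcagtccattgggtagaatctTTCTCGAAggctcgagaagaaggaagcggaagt

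Levels of different genes were compared per kilobase of the longest coding transcript. Hspa8 came first, at 1039 ± 323 CPM per kilobase (SD, n = 50), and Hspe1 second, at 681 ± 264. Hsp90aa1 (319 ± 110), Hspd1 (298 ± 123) and Hspb1 (291 ± 285) followed and did not differ beyond their spread, taken as the larger SD of 2 neighbours. Hspa8 was above Hspe1 in 44 of the 50 libraries, and Hspe1 above Hsp90aa1 in 44. Next came Dnajb1, at 38.8 ± 22.8, which was within the SD of Hspb1 but below it in 49 libraries. Hsph1 (11.6 ± 12.2), Hspa1b (10.8 ± 11.04), Bag3 (5.62 ± 8.58) and Hspa1a (1.55 ± 2.74) were last, each within the spread of the next, and Dnajb1 was above Hsph1 in 42 libraries. Per kilobase of coding sequence alone, Hspe1 moved above Hspa8, with 1723 against 1284 CPM per kilobase, and Hspb1 (431) moved above Hspd1 (420).

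Cell-to-cell variability was set against the level of each gene, since low genes vary more. The measure was the log2 squared coefficient of variation of CPM, minus a smooth trend over all tested genes, and is called the residual here. The residual of Hspb1 was 2.16, above 99.01% of tested genes. That of Hspa8 was 0.87, above 91.7%, so 2 of the 10 genes lay in the top 10% of tested genes, a mark that 10% pass by definition. Hspd1, at 0.72 (89.1%), lay just outside it, and Hsp90aa1, at 0.51 (82.7%), farther below.

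The remaining residuals were 0.29 for Hspe1, 0.23 for Hsph1, 0.14 for Bag3, -0.07 for Hspa1b, -0.09 for Dnajb1 and -0.47 for Hspa1a. A residual above 0 was found for 7 of the 10 genes and for 49.3% of tested genes. The median was 0.26 for the 10 genes and -0.01 for tested genes. Hspa8, Hsp90aa1, Hspb1, Hspd1 and Hspe1 thus lay above the trend for their level, while the residuals of Hspa1a, Hspa1b, Hsph1, Bag3 and Dnajb1 fell on both sides of it. The range of Hspa8 was narrow and its residual high, since the trend at its level was lower still.

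**Figure D2:**
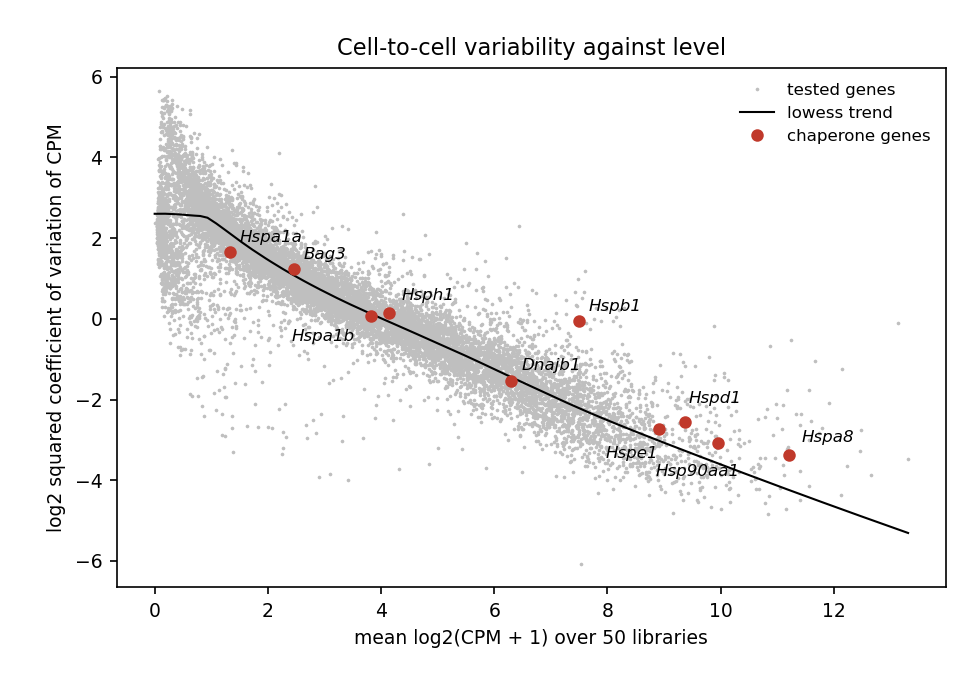
Log2 squared coefficient of variation of CPM against mean log2(CPM + 1) over the 50 kept libraries. Grey points are the 12012 tested genes, the line is the smooth trend, and red points are the 10 chaperone genes. Hspb1 lies 2.16 above the line, and Hspa1a 0.47 below it.

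Few of the 10 genes rose and fell together from cell to cell. Of their 45 pairs, 4 had a Pearson r of at least 0.3, or 8.89%, beside 3.58% of all pairs of tested genes. The median r was 0.0261 over the 45 pairs and 0.0240 over all pairs of tested genes. The r was below 0 for 20 pairs, lay within 0.2 of 0 for 34, and was lowest for Hspa1b with Hspb1, at -0.296. That lowest value rested on libraries at 0, since over the 38 libraries with both genes above 0 it was -0.0044. Taken in the same way, Hspa1b had an r of -0.461 with Hspe1 and -0.401 with Hspd1 (n = 39 each), and 0.381 with Hsph1 (n = 32). No p-value is given, because the 50 cells share a culture, a chip and differences in depth.

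The 4 pairs all came from genes with high levels or Dnajb1. They were Hspd1 with Hspe1 (r = 0.666, Spearman's rho = 0.569), Hspa8 with Hspe1 (0.424 and 0.337), Hspa8 with Hspd1 (0.356 and 0.322) and Hspa8 with Dnajb1 (0.317 and 0.175), each over 50 libraries. Among the 4 genes above 0 in every library, 3 of 6 pairs reached an r of 0.3, beside 5.42% of pairs among all genes so detected. The correlation of Hspd1 and Hspe1 was matched or passed by 0.0292% of those pairs. Hspa8 with Hsp90aa1, the constitutive HSP70 and an HSP90 that act in sequence, had an r of 0.274.

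**Figure D3:**
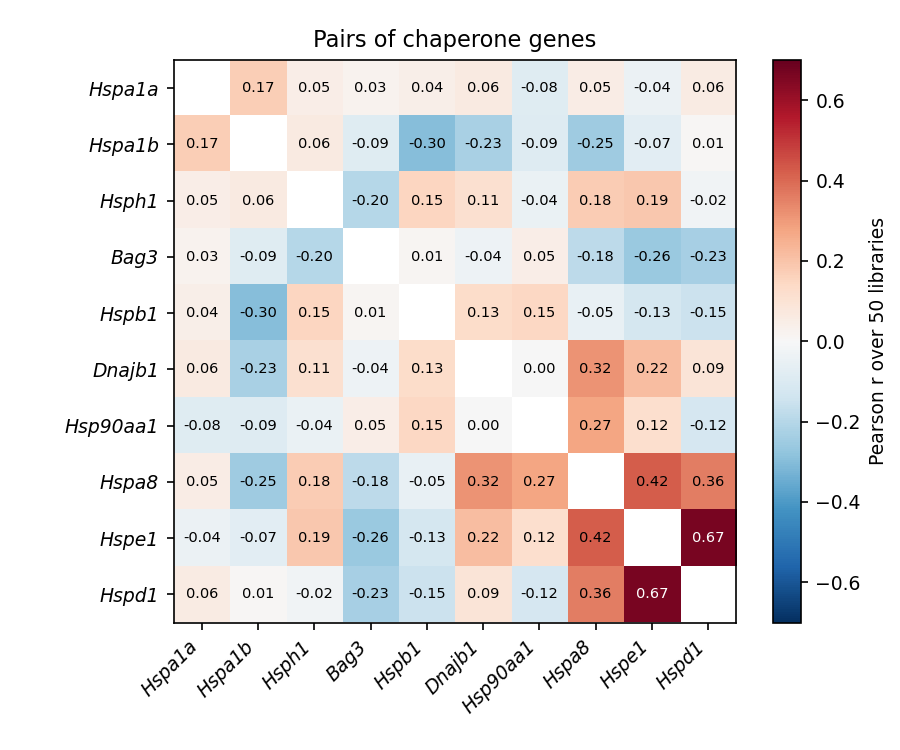
Pearson r between log2(CPM + 1) values for each pair of the 10 genes, over the 50 kept libraries. The highest value is 0.666, for Hspd1 with Hspe1, and the lowest is -0.296, for Hspa1b with Hspb1. Over the 38 libraries with both Hspa1b and Hspb1 above 0, their r was -0.0044.

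Without the 2 libraries farthest from the median of Hspd1, libraries 31 and 19, the r of Hspd1 with Hspe1 was 0.539. With the number of detected genes regressed out it was 0.661, and within 8 blocks, each of 12 successive numbers in the sample descriptions and a possible technical batch, 0.653. Scaling by spike-in counts instead of gene counts gave 0.884. That scaling also raised the median over all 45 pairs from 0.0261 to 0.278. The median over all pairs of tested genes was not computed under it, so these values have no background beside them.

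Libraries 17 and 19 had the lowest mean standardised level over the 10 genes, at -1.33 and -0.85. They entered many of these correlations. Library 19 was lowest for Hspa8, Hspd1 and Hspe1 and second highest for Hspb1 and Bag3 (72.0 CPM). Library 17 had Hsph1, Dnajb1 and Bag3 at 0, the second lowest Hspe1 (139 CPM) and all but 2 libraries below it in Hspa1b (100.4 CPM). Both held few detected genes, 6935 and 7436, and 1.60% and 1.51% spike-in counts, near the top of the range of the kept libraries.

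Proliferation genes were low in both. The 20 S-phase genes summed to 446 CPM in library 17 and 1006 CPM in library 19, the lowest values of the 50 libraries, against a median of 4087. The 20 genes of G2 and mitosis summed to 716 and 55.1 CPM, against a median of 3624. Immediate early genes, which respond within minutes to growth factors or stress, were highest of all libraries in library 17, at 5475 CPM, but low in library 19, at 727 CPM, against a median of 2071. The part of these differences in the correlations was not tested. Without both libraries, an alternative chosen after seeing the data, the r of Hspd1 with Hspe1 was 0.535 (n = 48), of Hspa8 with Hspe1 0.251, of Hspa8 with Hspd1 0.185 and of Hspa8 with Dnajb1 0.339.

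**Figure D4:**
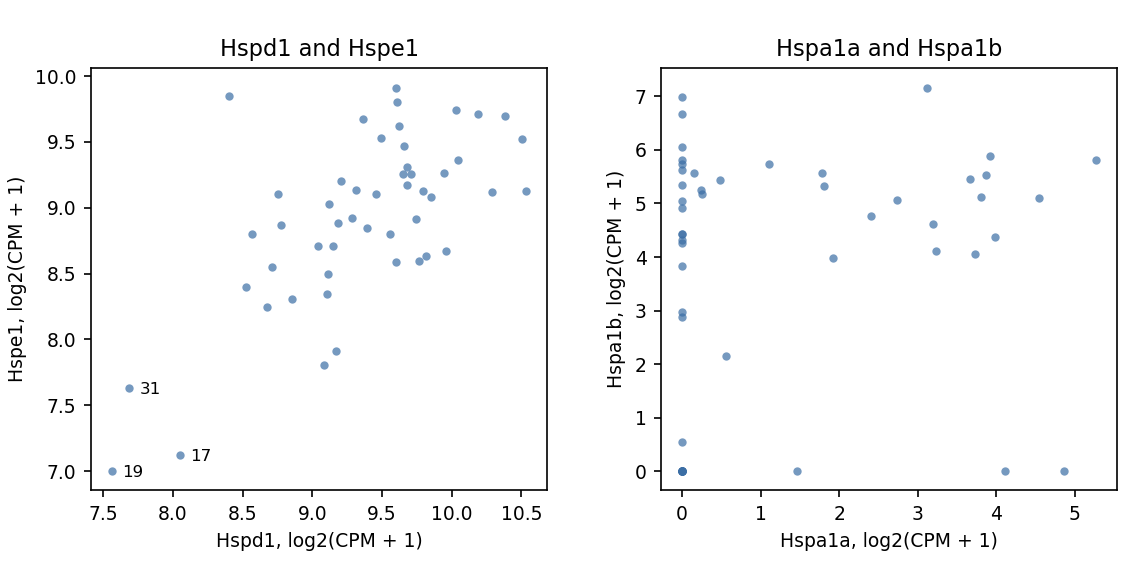
Levels in log2(CPM + 1) of Hspe1 against Hspd1 (left) and Hspa1b against Hspa1a (right), 1 point per kept library, with libraries 17, 19 and 31 numbered. At left (r = 0.666) the numbered libraries lie at the low end of both genes, and at right 17 libraries have Hspa1b above 0 with Hspa1a at 0.

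For each of the 10 genes, the 3 genes most like it were taken by Pearson's r over the 50 libraries, among 9272 others above 0 in at least 50% of them. Hspd1 was most like Ncl (nucleolin, 0.760), Mcm3 (a subunit of the replicative helicase, 0.689) and Cct5 (a subunit of the cytosolic chaperonin CCT, 0.679). Hspe1 was most like Eif3e (a translation initiation factor subunit, 0.741), Ncl (0.735) and Mcm3 (0.699). Hspa8 was most like Nop56 (a nucleolar protein of ribosomal RNA processing, 0.631), Rpl7l1 (0.607) and Fkbp4 (an HSP90 co-chaperone, 0.597). The lists of Hspd1 and Hspe1 thus shared Ncl and Mcm3. Spearman's rho was 0.690 and 0.587 for Ncl with Hspd1 and Hspe1, and 0.656 and 0.422 for Mcm3. Without libraries 17 and 19, Ncl gave 0.675 with Hspd1 and 0.613 with Hspe1, while Mcm3 gave 0.562 and 0.479.

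Hsp90aa1 was most like Ppp1r14b (0.571), Fcf1 (0.520) and Erh (0.493). Hspb1 was most like Tmed4 (0.663), Cd44 (a hyaluronan receptor, 0.610) and 9530068E07Rik (0.607). Spearman's rho for these 3 genes was 0.292, 0.432 and 0.263. Dnajb1 was most like Pafah1b2 (0.657), Pop5 (0.653) and Cdc34 (0.651), for which Spearman's rho was 0.249, 0.157 and 0.238. Hsph1 was most like Jade1 (0.660), Nup107 (a nuclear pore protein, 0.603) and Asf1b (a histone chaperone, 0.591), with a rho of 0.571, 0.477 and 0.317.

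Genes at 0 in many libraries followed. Bag3 was most like Csf3r (0.546), Slc20a1 (0.541) and Tpst2 (0.485), and Hspa1a most like Dido1 (0.517), Cutc (0.485) and Ep300 (0.474). Hspa1b was most like Depdc7 (0.542), Cdkn2b (a CDK inhibitor, 0.532) and 2410004B18Rik (0.525). For the mean standardised level over all 10 genes, the highest values were 0.688 for the splicing factor Srsf2, 0.652 for Ilf2, 0.650 for Cse1l, 0.649 for Mat2a and 0.648 for Clns1a, followed by Mtx2, Phf5a, Ssr3, Slmo2 and Idh3a (0.637). The lowest were -0.605 for Slc8b1, -0.584 for Ccdc78, -0.571 for Bsg, -0.552 for Cox6a1 and -0.534 for Gm5177. By rank these values were smaller in size. Spearman's rho of the highest genes ran from 0.256 for Idh3a to 0.459 for Srsf2, apart from Ssr3, at 0.630. For the lowest genes it ran from -0.452 for Cox6a1 to -0.311 for Bsg. Libraries 17 and 19 had the lowest mean standardised levels, and the r of these genes without both was not computed.

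The wider chaperone network was described from lists of genes, with levels in log2(CPM + 1) that are not corrected for length. All 13 genes of the CCT chaperonin and its partner prefoldin were above 0 in at least 50% of libraries, with a median level of 8.44, and the highest were Cct8 (10.17), Tcp1 (9.73) and Cct5 (9.53). So were all 14 genes of HSP90 and its co-chaperones (median 6.83), led by Hsp90ab1, Fkbp4 (8.75) and Stip1, the adaptor between HSP70 and HSP90 (8.57). Other J-domain genes, listed apart from those of mitochondria and the endoplasmic reticulum, passed in 9 of 12 cases (median 5.92). They were led by Dnaja1 (8.58), Dnaja2 (7.93) and Dnajc8 (7.59). Other HSP70 genes passed in 5 of 9 cases (median 5.28), led by the mitochondrial Hspa9 (8.56), then Hspa14 (7.41) and Hspa4 (7.06).

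All 9 genes of the other BAG proteins, CHIP and further co-chaperones of HSP70 passed (median 4.71). Among them were Stub1, which encodes the ubiquitin ligase CHIP (8.58), Bag1 (8.13) and St13 (7.12). Other mitochondrial chaperones and proteases passed in 7 of 7 cases (median 5.24), with Grpel1 at 8.06, Clpp at 7.46 and Lonp1 at 5.72. Genes listed as small heat shock genes by symbol, apart from Hspb1, passed in 2 of 5 measured cases (median 0.34), Hspb6 and Hspb11. Heat shock factors and their binding protein passed in 3 of 5, with Hsbp1 at 8.36, Hsf1, the main activator, at 4.61 ± 2.10 and Hsf2 at 4.09 (SD, n = 50), and Hsf5 was above 0 in 0 of 50 libraries. The largest residual within each of these lists was 1.17 for Ppid, 0.99 for Hspa9, 0.87 for Grpel2, 0.73 for Cct8, 0.51 for Bag2, 0.36 for Hspb6, 0.31 for Dnajb4 and -0.53 for Hsbp1, so all lay below that of Hspb1.

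The lists of other stress and growth genes gave the setting. Endoplasmic reticulum chaperones passed in 14 of 14 cases (median 7.14), with Pdia3 at 9.90, Hsp90b1 at 9.24 and Hspa5 at 9.19, whose residual was 1.05. Proteasome genes passed in 31 of 31 (median 8.57), led by Psma7 (10.16), Psmb6 (9.76) and Psma3 (9.73), with the largest residual, 0.88, for Psmd2. The NRF2 and redox genes passed in 8 of 8 (median 5.20), led by Gsr (8.16), Gclm (7.01) and Txnrd1 (5.78), with a residual of 1.12 for Slc7a11. Immediate early genes passed in 18 of 20 (median 5.59), with Fos at 7.76 ± 2.46 (SD, n = 50) and a residual of 2.36, then Ier2 (7.69) and Klf6 (7.55). The ATF4 genes passed in 6 of 10 (median 3.58), with Phgdh at 9.40, Psat1 at 8.76 and Asns, asparagine synthetase, at 8.11 and a residual of 1.77. S-phase genes passed in 20 of 20 (median 6.49), led by Pcna (9.41), Slbp (8.54) and Tyms (8.26), with a residual of 2.04 for Rrm2. Genes of G2 and mitosis also passed in 20 of 20 (median 6.40), led by Birc5 (8.38), Ccna2 (8.17) and Ccnb1 (8.14), with a residual of 2.66 for Ube2c. Cell cycle and immediate early genes thus held residuals of the size of Hspb1's, and the chaperone lists did not.

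The mean standardised level of each list, apart from the small heat shock list, was then set against the chaperone genes. Each mean was taken over the genes of the list above 0 in at least 50% of the kept libraries. The CCT and prefoldin list had the highest values, with an r of 0.681 for Hspe1, 0.631 for Hspd1 and 0.535 for Hspa8 (n = 50), and 0.560, 0.529 and 0.423 without libraries 17 and 19. HSP90 and its co-chaperones gave 0.536 for Hspd1 and 0.512 for Hspa8, which became 0.349 and 0.351. For Hspe1 the same list gave 0.396 and then 0.0692. The list of other J-domain genes gave 0.462 for Hsp90aa1, 0.450 for Hspe1 and 0.390 for Hspa8. Without those libraries it gave 0.470, 0.275 and 0.243. Other HSP70 genes gave 0.535 for Hspd1 and 0.434 for Hspe1, and 0.310 and -0.0186 without them. The CCT list had an r of 0.0595 with Hsph1, -0.0462 with Hspa1b and -0.0417 with Hspa1a, so its high values were with the chaperonin genes and Hspa8. The difference between these values was not tested. Other mitochondrial chaperones and proteases gave an r of 0.0753 for Hspd1, -0.0774 for Hspe1 and 0.00629 for Hspa8. For the same genes the endoplasmic reticulum list gave 0.180, 0.0965 and 0.240. The list of other BAG proteins and CHIP gave 0.269, 0.133 and -0.0405, and the NRF2 list 0.228, -0.00833 and -0.138. No background r of a gene with a list mean was computed, here or below.

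S-phase genes gave an r of 0.557 for Hspe1, 0.537 for Hspd1, 0.409 for Hspa8 and 0.401 for Hsph1. Without libraries 17 and 19 these were 0.296, 0.345, 0.241 and 0.301. Genes of G2 and mitosis gave 0.404 for Hsph1, 0.201 for Hspe1 and 0.0765 for Hspd1. Without those libraries Hsph1 had 0.318, while Hspe1 and Hspd1 turned negative, at -0.185 and -0.275. The proteasome list gave 0.467 for Hspe1 and 0.343 for Hsp90aa1, and 0.282 and 0.352 without them. The ATF4 list gave 0.459 for Hspd1 and -0.381 for Bag3, and 0.317 and -0.347 without them. Immediate early genes, which dissociation can raise, had an r between -0.262 (Bag3) and 0.166 (Hspa8) with the 10 genes. The heat shock factor list was a mean over 3 genes, Hsf1, Hsf2 and the binding protein Hsbp1, and covers RNA levels only. It had an r of -0.0820 with Hspa1b, -0.0198 with Hspa1a, 0.0161 with Hsph1 and 0.0340 with Bag3.

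**Figure D5:**
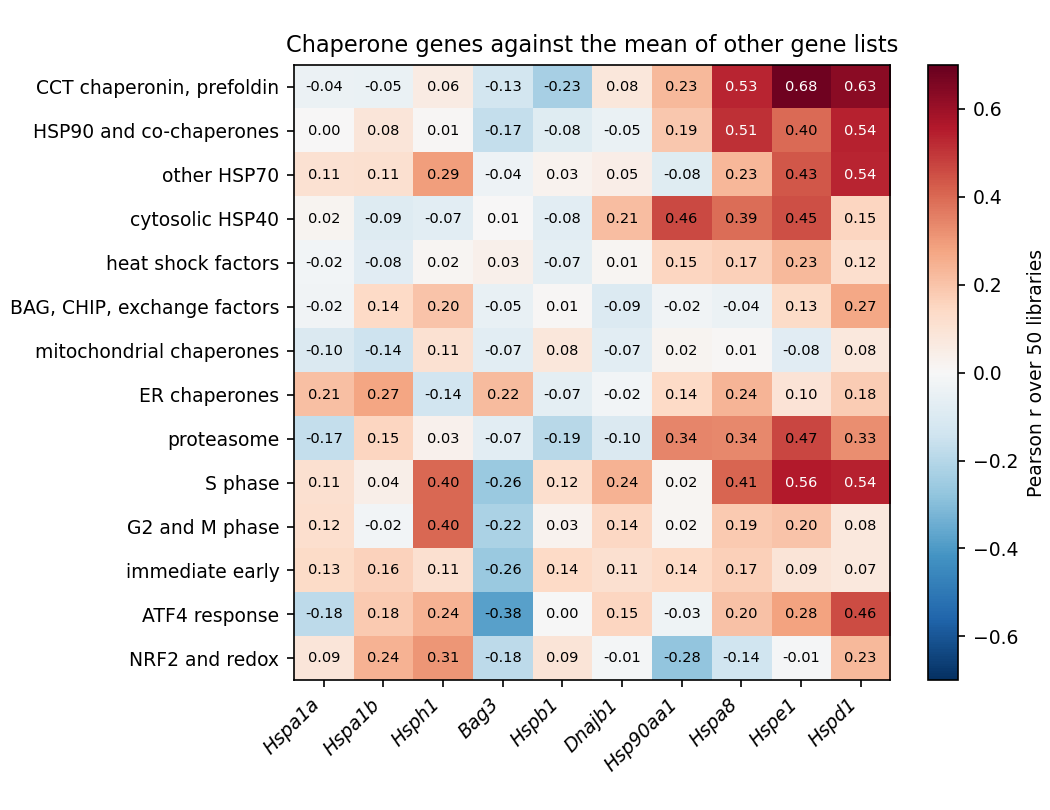
Pearson r over the 50 kept libraries between each chaperone gene (columns) and the mean standardised level of each gene list but the small heat shock list (rows). The darkest cells are the CCT and prefoldin list with Hspe1 (0.681) and Hspd1 (0.631), and the immediate early row stays between -0.262 and 0.166.

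The number of detected genes had an r of 0.390 with Hsph1 and 0.212 with Dnajb1 (Spearman's rho 0.228 and -0.0204). For the other 8 genes the r lay between -0.0612 and 0.123, beside a median of 0.154 over tested genes. Capture and a cell's own RNA content, which can both change that number, were not separated. The blocks of sample description numbers held 10.1% to 19.7% of the variance of each of the 10 genes, and a median of 13.6% for tested genes.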

How the data were processed

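Single-cell cDNA was made on a Fluidigm C1 chip and sequenced after Nextera XT library preparation, per the labels' protocols. The authors deposited estimated counts per gene for 62 libraries, with kallisto and mm9 named in the submitters' processing notes. The sources used here do not give the kallisto version and settings, nor any filter on cells or doublets. Expected counts that are not whole numbers were kept as they are, except when thinned.

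Counts were divided by the sum of the 19112 gene rows, without the 65 spike-in rows, and given as CPM and log2(CPM + 1). Libraries with 20% or more spike-in counts were left out, which kept 50 of 62. Reads of 1 cell are not independent molecules. The labels give 1 group, so nothing was compared between groups. The 10 genes, 15 companion lists and 6 marker lists were chosen with earlier results of these data known. Named genes were all 10, the 3 most correlated with each, the 10 highest and 5 lowest for their mean standardised level, and from each list the 3 of highest level and the 1 of largest residual. Residuals used a lowess trend (fraction 0.3) over the 12012 genes above 0 in at least 10 libraries. They were tested on simulated data, where variable genes were planted only at higher expected counts than those of Hspa1a and Bag3. Loss of transcripts in capture was not simulated. Lengths and 31-base words came from GENCODE M21, with the longest coding transcript of each gene, and its coding length as the alternative. Promoter windows came from RefSeq (GRCm38.p6). That build differs from mm9, but no coordinates of the deposited data were used. Alternatives for scaling, pseudocount, filters, depth, covariates and libraries were run. Python 3.11.15, numpy 2.4.6, pandas 2.3.3, scipy 1.17.1 and statsmodels 0.14.6 were used.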

Additional observations from a re-analysis of the deposited data

Results flagged for a closer look

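The 12 libraries with at least 20% spike-in counts were not used in the report, and the labels give no empty or control chambers. All 10 chaperone genes had a count in at least 1 of these 12. Hsp90aa1 was above 0 in 12 of them, Hspa8 in 9, Hspd1 in 8, Hspe1 in 6, Dnajb1 in 5, Hspb1 in 4, Hsph1 in 3, and Hspa1a, Hspa1b and Bag3 in 2 each. The order of detection put the genes found in every kept library first. A library held a median of 4 of the 10 genes, and library 43 held all 10. The highest single values were 17917 CPM for Hspa8 and 16317 CPM for Hsp90aa1, both in library 34, followed by 6644 CPM for Hspe1 in library 13. Each is above the highest kept value of its gene, 4671, 2278 and 962.5 CPM.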

How the results depend on the processing

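No paired analysis was possible because the labels give a single group. With all 62 libraries, the median level of the 10 genes was 5.84 in place of 6.90, the median pairwise r 0.284 in place of 0.0261, the r of Hspd1 with Hspe1 0.798 in place of 0.666, and 4 genes (Hsph1, Hsp90aa1, Hspe1 and Bag3) in place of 2 had a residual in the top 10%; the mean levels of Hspa8, Hspd1 and Hspe1 were 10.22, 8.13 and 7.89. Scaling by spike-in counts gave a median r of 0.278 and an r of 0.884 for Hspd1 with Hspe1. For all 62 libraries and for this scaling, the median r over all pairs of tested genes was not computed. Leaving out libraries 17 and 19, which are also the 2 farthest from the median of the mean standardised level, gave 0.535 for that pair, an alternative chosen after seeing the data. With genes above 0 in at least 25 libraries, only Hspb1 stayed in the top 10%, and Hspd1 joined Hspa8 and Hspb1 there, for 3 genes, with no filter on genes or a lowess fraction of 0.5. Per coding length, 4 of the 10 genes changed place in the order of levels. With a pseudocount of 0.1 the mean level of Hspa1a was -0.61. The cause of these shifts was not tested. Detection in at least 50% of libraries held for 10 genes in the main setting, 9 at 1 CPM, 8 at 10 CPM and 9 when libraries were thinned to 2000000 counts. The share of all gene rows was 48.6% in the main setting. It was not computed in the other settings, so those counts have no background beside them. The median pairwise r lay on either side of 0, at -0.0079 by Spearman's rho and -0.0112 without libraries 17 and 19. With 1 culture, counting depth and capture limit what a 0 shows for Hspa1a, Hspa1b, Hsph1 and Bag3, and the values describe these cells alone.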
